A study of Mus musculus with 29 samples.

Results

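The comparison asked which hypothalamic genes had a different tumour over PBS ratio at 192 h than at 72 h after mice were injected with tumour cells. Female Balb/c mice, 8 weeks old, received 100000 4T-1 cells subcutaneously in 100 µl PBS, and the control mice received 100 µl PBS alone. The 4T-1 line comes from a mouse mammary carcinoma and grows as a tumour in this strain. Both arms were kept and killed alike, and no genetic change or further agent was named in the labels. Each array was a direct hybridization of hypothalamus RNA from the tumour arm against that from the PBS arm, labelled with Cy3 and Cy5, so a value is a ratio within an array. The 72 h group held replicates 1, 3 and 4 of that time, and the 192 h group held the replicates of the same numbers. In both groups replicate 1 was poly(A) RNA on 1 array with the tumour RNA in Cy5, and replicates 3 and 4 were total RNA on 2 arrays each, with the dyes exchanged. The comparison thus used 10 of the 29 arrays and 6 of the 13 replicates of the series. Genes were taken where all 6 replicates gave a ratio, which was so for 1846 of the 8726 genes named on the arrays. The labels do not say whether a replicate was 1 animal or several pooled, and each p-value therefore covers only the variation seen among these 6 replicates. The direction of every ratio is likely rather than settled, because it assumes that channel A is Cy3 and channel B is Cy5, in the order of the labels, and that each array's labelled dye orientation is right; with a wrong label the ratios of that replicate would be others.

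The hypothalamus regulates feeding, energy use, temperature, daily rhythm and the hormones of the pituitary, and it receives signals about peripheral inflammation and tissue state through the blood and through nerves. In mice with growing tumours it is studied as the brain region through which appetite and metabolism can be altered. A gene can have a different ratio at the later time because tumour-arm RNA, PBS-arm RNA or both differ between the times, since each time has its own pair of arms. In whole tissue, fewer cells of a type and less RNA per cell cannot be told apart. Ratios below are log2 of tumour over PBS, relative to the median of the tested genes in that replicate, and a difference is the mean at 192 h minus the mean at 72 h, on the log2 scale, with its standard error from limma and 3 replicates per time.

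The replicates had little in common across genes, which bears on everything that follows. The 6 replicates lay on 3 prints of the array, that is, versions with other layouts: replicates 3 and 4 of 72 h and replicate 4 of 192 h shared one, replicate 1 of 72 h and replicate 3 of 192 h another, and replicate 1 of 192 h was on the third. Across the 1846 genes, ratios of replicates of the same time correlated at -0.02 to 0.083, and ratios of replicates of different times at -0.15 to 0.16. The mean ratios at 72 h and at 192 h correlated at 0.041 and had the same sign in 51.9% of the genes. The arrays of opposite dye orientation within a replicate, which hybridized the same RNAs, correlated after turning to tumour over PBS at -0.24 in replicate 3 and -0.034 in replicate 4 of 72 h, and at -0.0017 and 0.17 in replicates 3 and 4 of 192 h. Usable ratios came from 31.2% to 82.6% of the spots, depending on the array, and 566 of the 1846 genes had one on all 10 arrays. These points share probes, arrays and scans, so the correlations describe the arrays and carry no p.

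The dye effect, the mean Cy5 over Cy3 ratio of a probe over the 7 replicates of the 3 times labelled both ways, had been subtracted from each array before the comparison. The ratios after the subtraction were correlated with it. Their correlation with the dye effect over 1831 genes ran from -0.31 in replicate 1 of 72 h to 0.34 in replicate 3 of 192 h. The difference between the times correlated with it at 0.43. That dye effect was estimated partly from the arrays compared, so part of this correlation can be built in. With the dye effect taken from the 18 h arrays alone, which are no part of the comparison, the correlation with the difference was 0.27 over 1619 genes. It was lower, 0.10, when no dye effect was subtracted. Over the 550 of these genes with a ratio on all 10 arrays it was 0.10 after the subtraction. Where only 1 orientation was measured at a time, the ratio depends on the subtraction, and this holds in at least 1 of the 4 dye-swapped replicates for 18 of the 20 genes described next. In the 566 genes measured on all arrays, the difference computed from the Cy5 arrays of replicates 3 and 4 correlated at -0.22 with that from their Cy3 arrays, with the same sign in 44.5%.

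**Figure D1:**
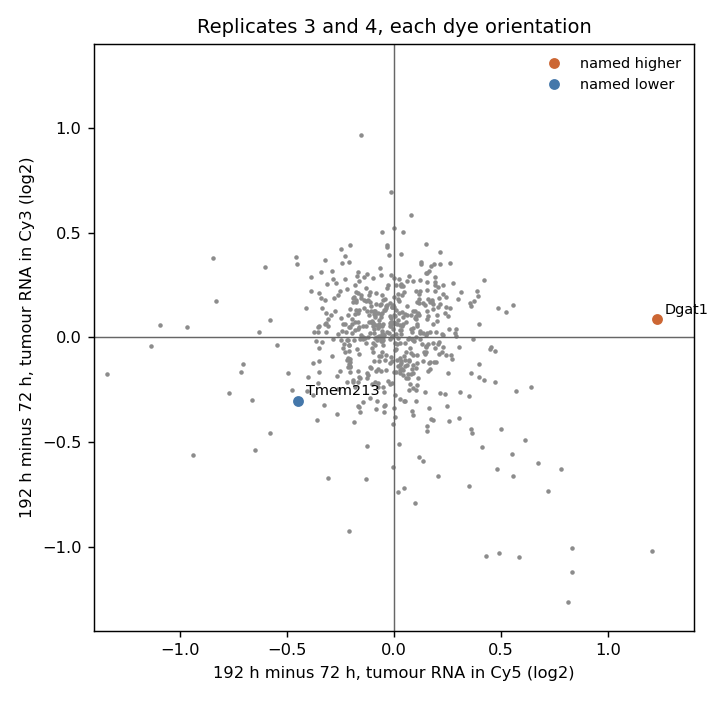
Each point is 1 of 566 genes measured on all arrays. The horizontal axis is the difference in log2 tumour over PBS between 192 h and 72 h from the arrays of replicates 3 and 4 with tumour RNA in Cy5, and the vertical axis the same from the arrays with tumour RNA in Cy3. Points do not follow the rising diagonal (correlation -0.22), and Dgat1, a gene named below, lies at 1.23 in one orientation and 0.087 in the other.

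No gene passed the test between the times. By limma with Benjamini-Hochberg adjustment over the 1846 genes, 0 genes (0%) had an adjusted p under 0.05, and the smallest adjusted p was 0.89. At an unadjusted p under 0.05 there were 75 genes, 27 higher at 192 h (1.46%) and 48 lower (2.6%), where a threshold of 0.05 alone corresponds to 92.3 genes. Without centring of the replicates the split was 14 higher and 61 lower, and with 1 replicate left out it ran from 17 to 46 higher and 36 to 62 lower. The 3 ratios at 192 h lay wholly above the 3 at 72 h in 85 genes (4.6%) and wholly below them in 96 (5.2%). Differences were small for most genes: the quartiles were -0.12 and 0.11, and 54 genes (2.93%) differed by more than 0.5 in size. The median standard error was 0.14, so a typical difference was no larger than its own error. Before centring, the median gene differed by -0.025 between the times. Genes are therefore described below by their values, and none is called changed.

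**Figure D2:**
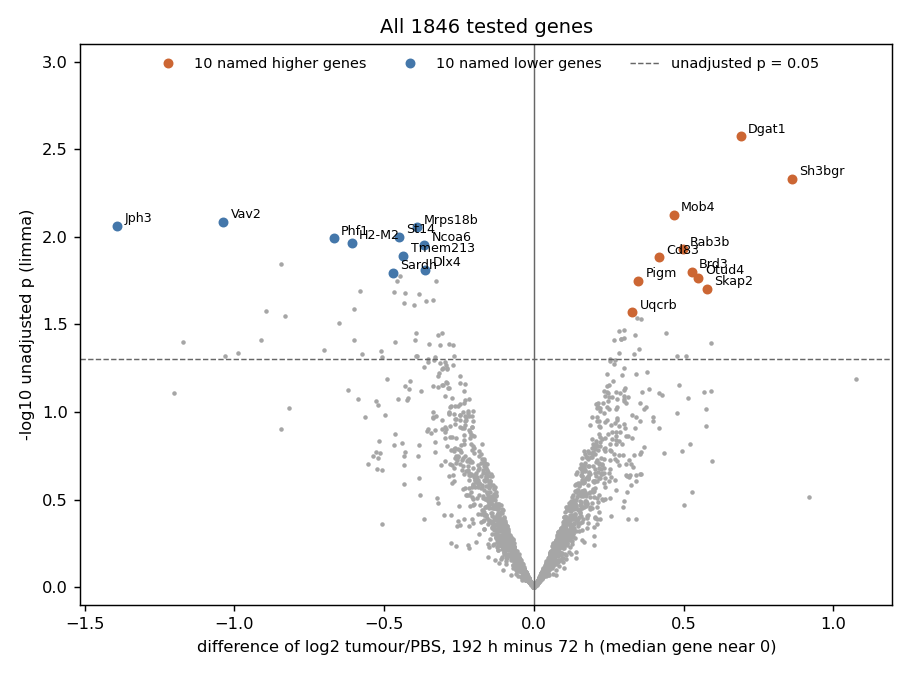
The horizontal axis is the difference in log2 tumour over PBS, 192 h minus 72 h, and the vertical axis is -log10 of the unadjusted p from limma, for 1846 genes (grey points). Coloured points are the 10 genes of smallest p in each direction whose replicates do not overlap between the times. The highest point is that of Dgat1, and the lowest adjusted p of any gene is 0.89.

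The 20 genes of the first set are the 10 of smallest p in each direction among those whose ratios do not overlap between the times. All 10 of the first group lay on average below the median gene at 72 h and above it at 192 h, and all 10 of the second group lay above it first and below it later. Since they were chosen by the difference, that direction is part of the choice, and their values are a description. Of the first group 9 had a dye effect above 0, of the second group 8 had one below 0, and 57.4% of all tested genes had one above 0. Without the subtraction of the dye effect, all 20 differences keep their sign, 12 have an unadjusted p under 0.05 and 13 do not overlap. With the print as a term in the fit 14 have an unadjusted p under 0.05, and 4 among the 3 replicates that share a print. Loess over the whole array, the setting first planned, leaves 7 of the 20 with an unadjusted p under 0.05. Median centring of each scan leaves 2, with 19 of 20 signs kept, and the authors' value tables, in which 12 of the 20 could be tested, leave 5.

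Among the genes with a higher ratio at 192 h, Dgat1 had the smallest p. It encodes a diacylglycerol acyltransferase of the last step of triglyceride synthesis. Its log2 ratios were -0.33, -0.081 and -0.56 in replicates 1, 3 and 4 at 72 h and 0.43, 0.54 and 0.13 in the same order at 192 h. All 3 lay below the median gene at the earlier time and all 3 above it at the later one. The difference was 0.69 ± 0.17 (SE), a 1.61-fold higher ratio. The dye effect of its probe was large, -1.23. Replicate 1, measured in Cy5 alone, was at -1.53 at 72 h and -0.83 at 192 h before its subtraction. In replicate 3 the Cy5 and Cy3 arrays then stood at -1.75 and 1.63 at 72 h, and at -0.30 and 1.37 at 192 h. Without the subtraction the difference was 0.69, with an unadjusted p of 0.15 by limma. Sh3bgr, which encodes a protein with an SH3-binding, glutamate-rich stretch, had ratios of 0.017, -0.83 and -0.84 at 72 h and 0.35, 0.43 and 0.16 at 192 h. Replicates 3 and 4 at 72 h stood far below the others, while replicate 1 was close to the median gene, and the difference was 0.86 ± 0.23.

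Mob4, a MOB family member found in the STRIPAK phosphatase and kinase assembly, lay at -0.25, -0.34 and -0.094 at 72 h and at 0.36, 0.048 and 0.31 at 192 h, below the median gene in every replicate of the first time and above it in every replicate of the second. Its difference was 0.47 ± 0.13. Before the subtraction of a dye effect of 0.14, replicate 3 of 192 h, measured in Cy3 alone, was at -0.096. Replicate 4 of 192 h averaged arrays at 0.85 (Cy5) and -0.22 (Cy3). Rab3b is a small GTPase of regulated secretion. It lay at -0.51, -0.14 and -0.21 at 72 h and at 0.37, -0.032 and 0.30 at 192 h, with replicate 3 of 192 h near the median gene, and the difference was 0.50 ± 0.16. Uqcrb, a subunit of respiratory complex III, had the narrowest spread at 72 h of the 10 genes, with ratios of -0.14, -0.098 and -0.036, against 0.20, 0.40 and 0.11 at 192 h. Its difference of 0.33 ± 0.12 was one of the smaller ones in size. The narrow spread is that of replicate values: replicate 3 of 72 h averaged arrays at 0.29 (Cy5) and -0.44 (Cy3) before the subtraction of a dye effect of 0.12. Replicates 1 and 4 of 72 h, in Cy5 alone, were then at 0.0078 and 0.065, above 0. Without the subtraction the difference was 0.25, with an unadjusted p of 0.061 by limma.

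Genes of immune cell signalling were among them too. Cd83, an immunoglobulin-family surface protein known as a marker of mature dendritic cells, had ratios of -0.15, -0.24 and 0.046 at 72 h and 0.38, 0.40 and 0.13 at 192 h, and Skap2, an adaptor of Src-family kinases in haematopoietic cells, of -0.65, -0.13 and 0.045 at 72 h and 0.53, 0.42 and 0.06 at 192 h. For Skap2, replicate 4 at the later time exceeded replicate 4 at the earlier one by little, and replicate 1 was the lowest of the earlier time and the highest of the later one; the difference was 0.58 ± 0.20. It was 0.017 on the Cy3 arrays alone and 0.10 among the 3 replicates that share a print. The difference of Cd83 was 0.42 ± 0.13. The remaining genes of the group serve general cell functions: Brd3 reads acetylated histones, Otud4 is a deubiquitinase, and Pigm is a mannosyltransferase of the GPI anchor. Brd3 had ratios of -0.61, -0.38 and -0.17 at 72 h and -0.043, 0.46 and -0.0032 at 192 h. Those of Otud4 were -0.49, -0.48 and -0.22 at 72 h and -0.12, 0.56 and 0.01 at 192 h. In both genes replicate 3 at 192 h was the only one clearly above the median gene, and the later groups clear the earlier ones because all ratios at 72 h were low. Pigm had ratios of -0.12, 0.028 and -0.13 at 72 h and 0.19, 0.25 and 0.39 at 192 h. Replicate 3 at 72 h was just above the median gene and the other 2 of that time below it, while all 3 at 192 h were above it. The differences were 0.53 ± 0.18 for Brd3, 0.55 ± 0.19 for Otud4 and 0.35 ± 0.12 for Pigm, and that of Otud4 was 0.32 without the subtraction of the dye effect.

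**Figure D3:**
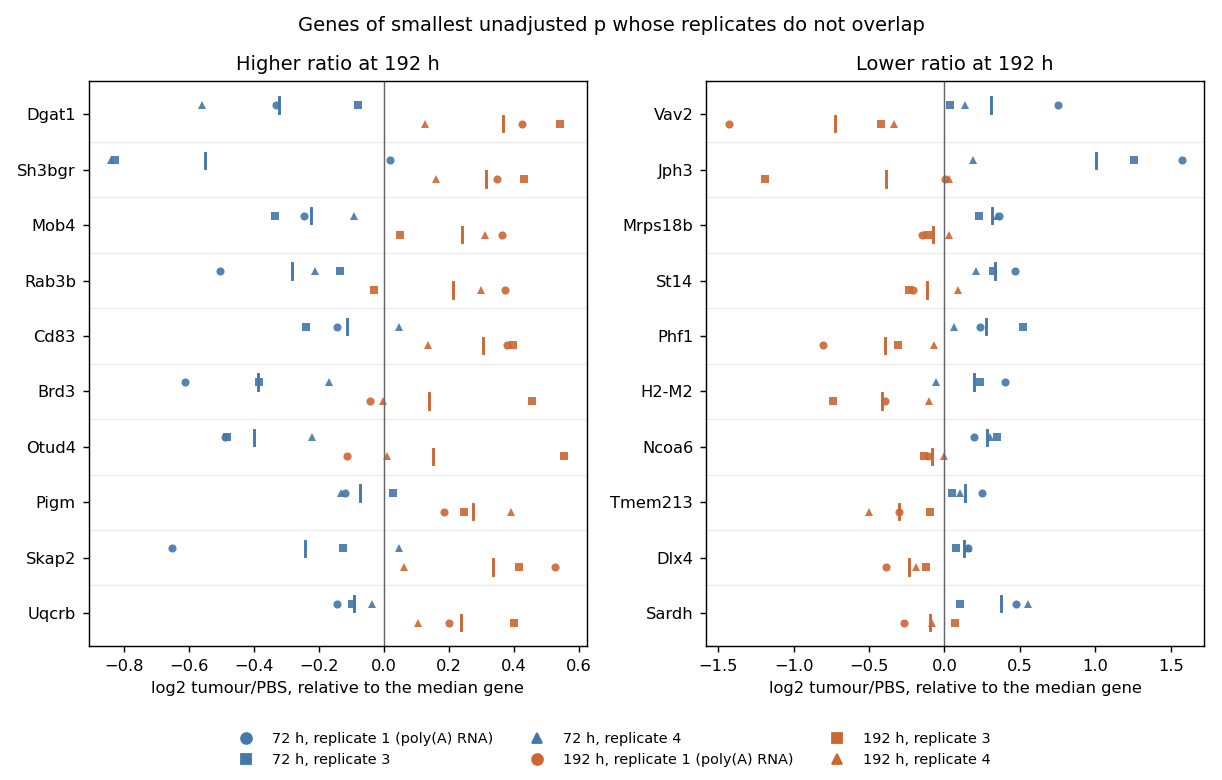
Log2 tumour over PBS of the 20 genes in each replicate, relative to the median gene (0, vertical line). Blue is 72 h and orange 192 h, the symbol gives the replicate, and the short bar is the mean of the 3. The groups do not overlap by the choice of the genes; Jph3 and Vav2 have the widest spread, with replicates from -1.19 to 1.57 and from -1.43 to 0.75.

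On the lower side, the largest differences were those of Jph3 and Vav2. Jph3 encodes a junctophilin that holds the endoplasmic reticulum close to the plasma membrane in neurons. Its ratios were 1.57, 1.25 and 0.19 in replicates 1, 3 and 4 at 72 h and 0.0022, -1.19 and 0.032 at 192 h. Replicates 1 and 3 of 72 h were high and replicate 3 of 192 h low, while the remaining replicates lay within 0.19 of the median gene, so the separation between the groups is narrow against the spread within them. The difference was -1.39 ± 0.41, the largest in size of all 1846 genes, on a probe with a dye effect of -1.61; it was -0.86 without the subtraction of that effect. Vav2 encodes a guanine nucleotide exchange factor of the Vav family. It had ratios of 0.75, 0.038 and 0.14 at 72 h and -1.43, -0.42 and -0.34 at 192 h, with replicate 1 extreme at both times. The difference was -1.04 ± 0.30 and -0.31 without the subtraction.

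Nuclear regulators made up 3 of the lower genes. Ncoa6, a coactivator of nuclear receptors, had the most even values: 0.20, 0.35 and 0.30 at 72 h and -0.11, -0.13 and -0.0058 at 192 h, with every replicate of the earlier time above 0.19 and every replicate of the later one below 0. Its difference was -0.37 ± 0.11. The evenness is that of replicate values: replicate 3 of 72 h averaged arrays at 0.017 (Cy5) and 0.72 (Cy3) before the subtraction of the dye effect. Ncoa1, a coactivator of steroid receptors, gave -0.23, -0.14 and 0.092 at 72 h and 0.095, -0.12 and 0.023 at 192 h, which overlap, with a difference of 0.09 ± 0.13. Phf1 is a Polycomb-like partner of the methyltransferase complex that modifies histone H3. It lay at 0.24, 0.52 and 0.061 at 72 h and at -0.81, -0.31 and -0.069 at 192 h, above the median gene in all 3 replicates and then below it, with a difference of -0.67 ± 0.20. These signs depend on the subtraction of a dye effect of -0.36. Before it, replicate 1 of 72 h, in Cy5 alone, was at -0.084, and replicate 3 of 192 h, in Cy3 alone, was at 0.04. Replicate 3 of 72 h averaged arrays at -0.15 (Cy5) and 1.24 (Cy3). Without the subtraction the difference was -0.55, with an unadjusted p of 0.13 by limma. Dlx4, a homeobox gene of the distal-less family, lay at 0.16, 0.075 and 0.16 at 72 h and -0.38, -0.12 and -0.19 at 192 h, with a difference of -0.36 ± 0.12. Before the subtraction of a dye effect of -0.20, its replicate 1 of 72 h, in Cy5 alone, was at -0.0063. Replicate 3 of 72 h averaged arrays at -0.56 (Cy5) and 0.75 (Cy3). Without the subtraction the difference was -0.30, with an unadjusted p of 0.12 by limma.

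The surface proteins among the lower genes were St14, H2-M2 and Tmem213. St14 is the membrane serine protease matriptase. Its ratios were 0.47, 0.32 and 0.21 at 72 h and -0.21, -0.23 and 0.087 at 192 h, all above the median gene at the earlier time, with a difference of -0.45 ± 0.14. H2-M2, a nonclassical class I gene of the major histocompatibility complex, had 0.40, 0.23 and -0.054 at 72 h and -0.40, -0.74 and -0.11 at 192 h. Replicate 4 at the earlier time was close to replicate 4 at the later one, and the difference of -0.61 ± 0.19 became -0.18 without the subtraction of a dye effect of -0.65. Tmem213, a transmembrane protein gene, was 1 of 2 of the 20 genes with a ratio on all 10 arrays, the other being Dgat1. It had ratios of 0.25, 0.053 and 0.10 at 72 h and -0.30, -0.096 and -0.50 at 192 h, and the difference was -0.44 ± 0.14. It came out at -0.45 from the Cy5 arrays and -0.30 from the Cy3 arrays of replicates 3 and 4, with the same sign in both.

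Mitochondrial proteins stood on both sides. Mrps18b, of the small subunit of the mitochondrial ribosome, had ratios of 0.36, 0.23 and 0.35 at 72 h and -0.15, -0.11 and 0.027 at 192 h, and a difference of -0.39 ± 0.12. Sardh, the sarcosine dehydrogenase of the mitochondrial matrix, had 0.47, 0.10 and 0.55 at 72 h and -0.27, 0.072 and -0.086 at 192 h, and a difference of -0.47 ± 0.16. The earlier ratios of both genes were all above the median gene, and 1 of 3 later ratios was above it as well.

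Genes of the respiratory chain and ATP synthase, which couple electron transport to ATP production, were more often above than below 0 in their difference between the times. Of 26 tested subunits 19 had a difference above 0 (73.1%, against 49.6% of all tested genes), and the median difference was 0.076 against -0.0022. No subunit passed the test, and 1 (Uqcrb) had an unadjusted p under 0.05. The list median was -0.025, 0.022 and -0.024 in replicates 1, 3 and 4 at 72 h and 0.10, 0.11 and -0.026 at 192 h. Replicates 1 and 3 of 192 h stood above the other 4, while replicate 4 of 192 h was as low as replicates 1 and 4 of 72 h. Among the 3 replicates that share a print, which are replicates 3 and 4 of 72 h and replicate 4 of 192 h, the median difference was -0.005.

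By complex, all 4 tested subunits of complex III were above 0 (median difference 0.12, range 0.027 to 0.33), and 5 of 6 of complex IV, the cytochrome c oxidase, with a median of 0.075. Complex I, the NADH dehydrogenase, had 6 of 10 above 0 (median 0.073, from -0.15 to 0.20), ATP synthase 3 of 5 (median 0.053), and the single tested subunit of complex II, Sdhd, had a difference of 0.12. After Uqcrb the smallest p was that of Atp5j, a coupling factor subunit of ATP synthase. It lay at -0.20, -0.044 and -0.083 at 72 h and at 0.18, 0.36 and -0.043 at 192 h, where replicate 4 only just cleared the highest value of 72 h, and differed by 0.27 ± 0.14. Within a complex, the subunits differed in sign: Atp5o had a difference of -0.11 ± 0.11 beside Atp5j, and Ndufb5 had -0.14 ± 0.13 beside 0.20 ± 0.13 for Ndufb11, both of complex I.

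**Figure D4:**
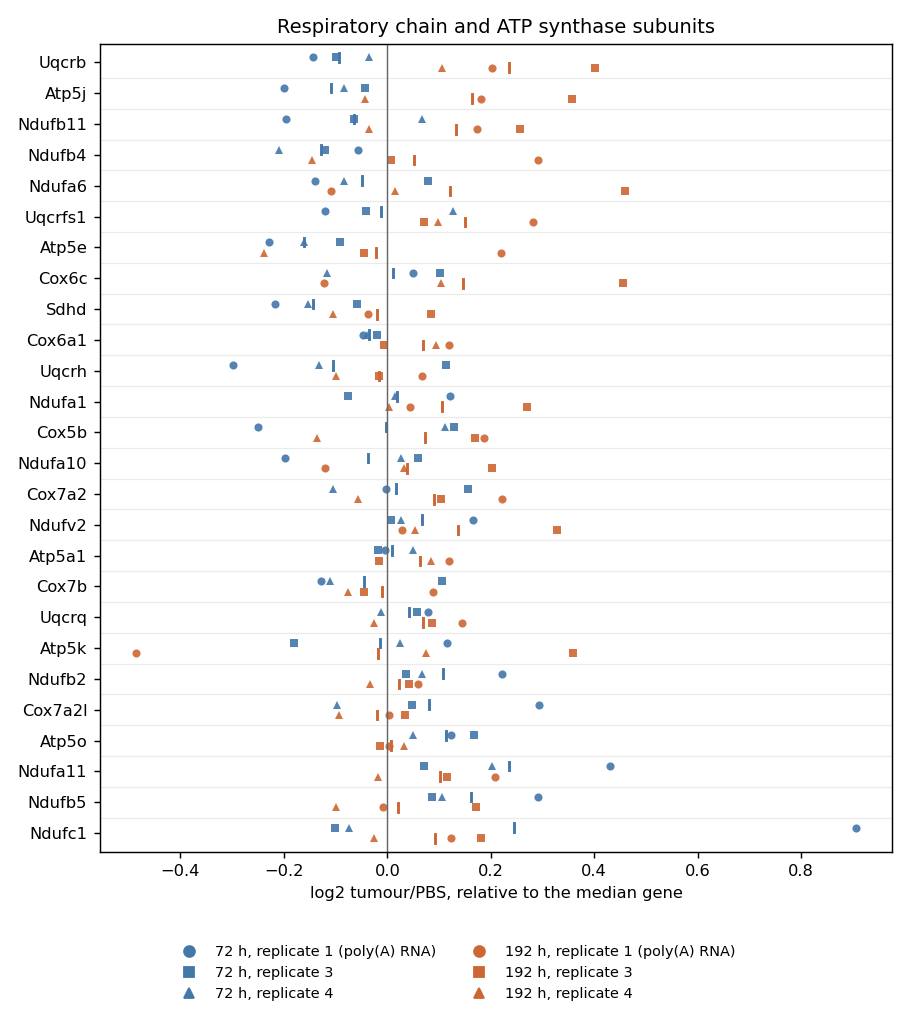
Log2 tumour over PBS of the 26 tested subunits, ordered by their difference between the times, with blue for 72 h, orange for 192 h, a symbol per replicate and a bar for the mean. Uqcrb and Atp5j at the top are separated between the times; in most other subunits the replicates of the 2 times overlap.

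Other energy genes were mixed. Of the mitochondrial ribosome, import and assembly genes 14 of 25 were above 0 (56%, median difference 0.037, and -0.015 from the authors' value tables), and 3 of the 25 had replicates wholly above and 4 wholly below those of 72 h, against 4.6% and 5.2% of all tested genes. Members of the same particle went apart: Mrpl48, of the large subunit, had ratios of -0.24, -0.036 and -0.30 at 72 h and 0.12, 0.11 and 0.099 at 192 h. Mrpl15, of the same subunit, had 0.04, 0.13 and 0.23 at 72 h and -0.19, -0.54 and -0.08 at 192 h. In neither gene did the times overlap, and the differences were 0.30 ± 0.12 and -0.40 ± 0.15. Glycolysis and citric acid cycle genes had 8 of 11 above 0 with a median of 0.057, but a mean of -0.011. For fatty acid and triglyceride synthesis 5 of 8 were above 0, with a median of 0.066. Dgat2, the second triglyceride-forming acyltransferase, had ratios of -0.64, 0.037 and -0.53 at 72 h and -0.25, 0.28 and 0.087 at 192 h that overlap through replicate 3 of 72 h, and a difference of 0.42 ± 0.21 in the direction of Dgat1. The list medians were -0.0038, -0.021 and -0.034 at 72 h and 0.034, 0.021 and 0.076 at 192 h and did not overlap. Fasn, the fatty acid synthase, had a ratio in 5 of 6 replicates and was not tested. Of 5 tested genes of valine and propionate catabolism 3 were above 0, with a median of 0.0021 that ran from -0.30 to 0.44 over the 28 alternatives. The list medians were 0.18, 0.18 and 0.12 at 72 h and -0.096, 0.099 and 0.021 at 192 h and did not overlap. Aldh6a1, the methylmalonate-semialdehyde dehydrogenase, had the smallest p of the list and went down. Its ratios were 0.79, 0.33 and 0.19 at 72 h and 0.32, -0.12 and -0.027 at 192 h, overlapping by the first replicate of 192 h. The difference was -0.38 ± 0.19.

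Among genes of protein synthesis and turnover, the proteasome, which degrades ubiquitin-tagged proteins, had 9 of 12 tested genes above 0 (75%) and a median difference of 0.066. Psmd3, of its regulatory particle, had ratios of 0.03, -0.017 and -0.13 at 72 h and 0.24, 0.15 and 0.23 at 192 h, which do not overlap, and a difference of 0.24 ± 0.11. Heat shock proteins and chaperones had 10 of 15 above 0 and a median of 0.074. Their list medians were 0.013, -0.076 and -0.0074 at 72 h and 0.075, 0.069 and 0.033 at 192 h, without overlap. Of single tested genes 4.6% lay wholly above and 5.2% wholly below their 72 h replicates. No chaperone gene had an unadjusted p under 0.1. Over the 28 alternatives described at the end, the median difference of the chaperone list ran from -0.013 to 0.13. The ubiquitin pathway was even, with 20 of 39 above 0 and a median of 0.0034. Within it, the conjugating enzyme Ube2a had -0.14, -0.18 and -0.15 at 72 h and 0.043, 0.20 and 0.095 at 192 h, and a difference of 0.27 ± 0.11. The difference was 0.40 on the Cy5 arrays and 0.11 on the Cy3 arrays alone, and as low as 0.029 under one alternative. Its arrays of opposite orientation disagreed in sign at 72 h, with -0.46 in Cy5 and 0.14 in Cy3 for replicate 3, and 0.075 and -0.40 for replicate 4, before any subtraction. Fbxo22, a substrate receptor of a ubiquitin ligase, had 0.069, 0.22 and 0.035 at 72 h and -0.20, -0.11 and -0.067 at 192 h, the other way, with -0.23 ± 0.12. Usp12, a deubiquitinase, differed by -0.27 ± 0.14 with overlapping replicates.

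Cytosolic ribosomal proteins had 9 of 20 above 0 and a median of -0.025, which turned to 0.0083 under loess over the whole array and 0.0021 from the authors' value tables. Rpl37, of the large subunit, had the smallest p of the list, with ratios of -0.21, 0.26 and -0.14 at 72 h and 0.64, 0.40 and -0.027 at 192 h that overlap, and a difference of 0.37 ± 0.20. Translation factors had 5 of 9 above 0 and a median of 0.046, but -0.13 with median centring of each scan, and autophagy, lysosome and vacuolar ATPase genes 7 of 11 and 0.039. Neither list had a member with an unadjusted p under 0.1.

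**Figure D5:**
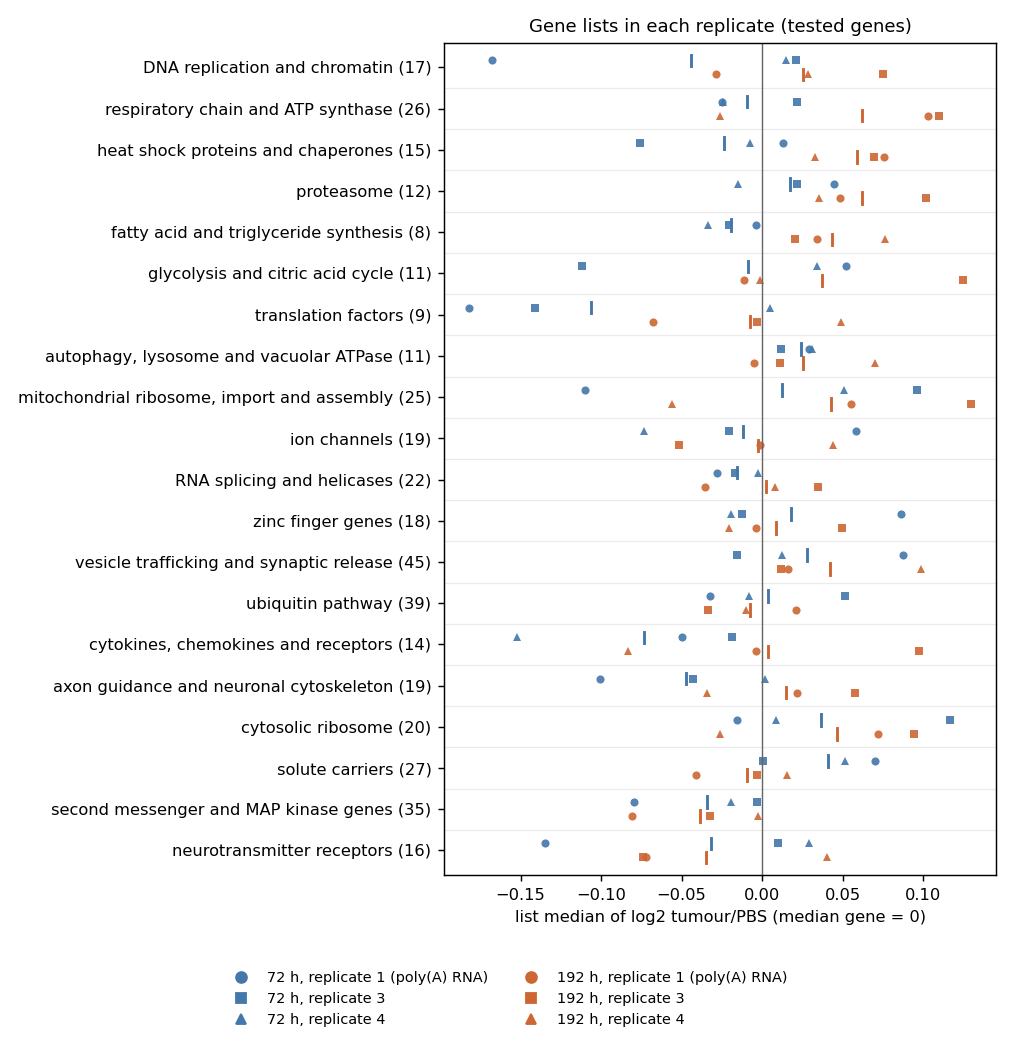
Median log2 tumour over PBS of each gene list with 8 or more tested genes, in each replicate, ordered by the median difference between the times. Blue is 72 h, orange 192 h, the symbol gives the replicate, and the bar is the mean of the 3 medians. The replicate medians of most lists overlap between the times, and those of the chaperones and of fatty acid and triglyceride synthesis do not. No list was tested, and of single tested genes 4.6% lay wholly above and 5.2% wholly below their 72 h replicates.

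In the nucleus, DNA replication and chromatin genes had the highest median of the lists other than markers, 0.081. Of them 12 of 17 were above 0 (70.6%), but the mean was 0.011. The gap between median and mean comes with Dbf4, the regulatory subunit of the Cdc7 kinase that starts replication. Its ratios were 2.12, 0.97 and 1.23 at 72 h and 0.61, -0.59 and 1.22 at 192 h, which overlap, and the difference was -1.03 ± 0.45. Its probe had the largest dye effect of the genes named, -2.17, and the difference was 0.11 among the 3 replicates that share a print. Hdac7, a class IIa histone deacetylase, had -0.25, 0.19 and 0.015 at 72 h and 0.32, 0.11 and 0.35 at 192 h, overlapping, with 0.28 ± 0.15. RNA splicing and helicase genes had 12 of 22 above 0 and a median of 0.032. Lsm6, of the Sm-like rings that bind small RNAs, had -0.33, -0.097 and -0.17 at 72 h and -0.034, 0.38 and 0.06 at 192 h without overlap. Lsm1, of the cytoplasmic ring that acts in mRNA decay, had -0.081, -0.28 and -0.045 at 72 h and 0.28, 0.25 and -0.047 at 192 h, overlapping in replicate 4. Their differences were 0.33 ± 0.14 and 0.29 ± 0.14. Immediate early genes, which respond to neuronal activity, had 3 of 7 above 0 and a median of -0.0028. Among them Klf6, a zinc finger transcription factor, had -0.14, -0.025 and 0.11 at 72 h and 0.82, 0.11 and 0.14 at 192 h, and replicate 1 at 192 h gave most of its difference of 0.37 ± 0.20. Zinc finger genes were even, with 9 of 18 above 0.

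Signalling lists differed in direction. Second messenger and MAP kinase genes had 13 of 35 above 0 (37.1%) and a median of -0.044, the list medians being -0.08, -0.0032 and -0.019 at 72 h and -0.081, -0.032 and -0.0026 at 192 h, which overlap. Of these 35 genes 1 was wholly above and 4 were wholly below the 72 h replicates, against 4.6% and 5.2% of all tested genes. Camk2a, a calcium and calmodulin-dependent kinase abundant in forebrain neurons, had ratios of 0.0058, 0.57 and -0.11 at 72 h and -0.72, -0.12 and -0.23 at 192 h, and differed by -0.51 ± 0.22. Its probe had a dye effect of -0.33. Before its subtraction replicate 1 of 72 h, in Cy5 alone, was at -0.29, and replicate 3 of 72 h averaged arrays at -0.49 (Cy5) and 1.67 (Cy3). Prkce, protein kinase C epsilon, had 0.22, 0.27 and 0.01 at 72 h and -0.27, -0.12 and 0.0064 at 192 h, where replicate 4 was nearly equal at both times, and differed by -0.30 ± 0.13. Gnas, the stimulatory G protein subunit that activates adenylyl cyclase, went the other way in every replicate: -0.084, -0.26 and -0.019 at 72 h and 0.11, 0.18 and 0.22 at 192 h, a difference of 0.29 ± 0.12.

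Neurotransmitter receptors had 7 of 16 above 0 and a median of -0.051, and 0.021 from the authors' value tables. Gabra3, a subunit of GABA-A receptors, had one of the widest spreads: -0.42, 0.085 and 1.35 at 72 h and -0.48, -0.26 and -1.21 at 192 h. Replicate 4 had the highest ratio at the earlier time and the lowest at the later one, replicate 1 hardly differed, and the difference was -0.99 ± 0.42, with -1.93 to -0.29 under the alternatives. Its probe had a dye effect of -1.05, and replicate 3 of 72 h averaged arrays at -2.33 (Cy5) and 2.54 (Cy3) before its subtraction. Chrm4, a muscarinic receptor, had -0.13, 0.38 and 0.21 at 72 h and -0.18, -0.29 and -0.032 at 192 h, overlapping, with -0.32 ± 0.16. Ion channel genes had 14 of 19 above 0 (73.7%) and a median of 0.036, which was -0.088 when each scan was centred on its median with no loess and -0.0025 from the authors' value tables. Cacna1d, an L-type calcium channel subunit, had -0.59, -0.65 and 0.13 at 72 h and 0.25, -0.14 and 0.064 at 192 h, overlapping through replicate 4 of 72 h, and differed by 0.43 ± 0.22.

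Vesicle trafficking and synaptic release genes were even, with 23 of 45 above 0 and a median of 0.0068, but 5 of the 45 had replicates wholly above those of 72 h and 0 wholly below, against 4.6% and 5.2% of all tested genes. With Rab3b these include Vps53, of a tethering complex at the trans-Golgi, which had -0.054, -0.047 and -0.10 at 72 h and 0.38, 0.13 and 0.029 at 192 h, a difference of 0.25 ± 0.13. Rab3a, the main Rab3 GTPase of synaptic vesicles, had -0.074, -0.27 and -0.50 at 72 h and -0.26, 0.31 and 0.18 at 192 h, overlapping through replicate 1 of 192 h, and differed by 0.36 ± 0.18. Solute carriers had 12 of 27 above 0 and a median of -0.03. Slc7a13, an amino acid carrier, had -0.18, -0.36 and -0.34 at 72 h and 0.069, 0.22 and -0.16 at 192 h. Slc16a1, the monocarboxylate transporter that moves lactate and ketone bodies, had 0.31, 0.15 and 0.53 at 72 h and -0.041, 0.074 and 0.01 at 192 h. The first was lower than the median gene throughout 72 h and the second higher, both lay nearer to it on average at 192 h, and the differences were 0.34 ± 0.14 and -0.31 ± 0.13. Slc9a3r1, a scaffold of membrane transporters rather than a carrier itself, had -0.26, -0.098 and -0.047 at 72 h and 0.15, 0.077 and 0.24 at 192 h, with 0.29 ± 0.12. Axon guidance and neuronal cytoskeleton genes had 8 of 19 above 0 and a median of -0.013, with no member under an unadjusted p of 0.1.

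Cytokines, chemokines and their receptors were sparsely measured: 14 of 124 genes on the arrays were tested, with 7 of 14 above 0 and a median of 0.0014. Ccl4, a chemokine that attracts monocytes and lymphocytes, had the smallest p. Its ratios were 0.39, 0.86 and -0.21 at 72 h and -0.69, -0.72 and -0.087 at 192 h. They overlap, because replicate 4 of 72 h was below replicate 4 of 192 h, and the difference was -0.84 ± 0.28 on a probe with a dye effect of -0.65.

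Hypothalamic and cell type markers gave few values. Of the hypothalamus markers on the arrays 3 of 10 were tested. Oxt, the oxytocin gene, had ratios of 0.11, 0.052 and -0.046 at 72 h and 0.26, 0.12 and -0.10 at 192 h, which overlap, and a difference of 0.05 ± 0.13. Hcrt, the orexin precursor, had -0.38, 0.0032 and 0.078 at 72 h and 0.35, 0.014 and 0.018 at 192 h, also overlapping, and a difference of 0.23 ± 0.16. Foxb1, a forkhead gene of the mammillary region, differed by 0.14 ± 0.14. Avp, the vasopressin gene, had a ratio in 5 of 6 replicates. Of other markers, 3 of 10 for neurons, 3 of 4 for astrocytes, 3 of 7 for oligodendrocytes, 1 of 7 for microglia and macrophages, 3 of 5 for pituitary and 3 of 5 for neighbouring brain regions were tested, and none for endothelium, blood, choroid plexus or meninges. Their list medians differed by -0.011 (microglia) to 0.12 (oligodendrocytes), and of these markers Camk2a, which is also a marker of neighbouring regions, had an unadjusted p under 0.05. The part of tissue composition in the differences above was not tested.

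Other genes that earlier results of these data had named had differences of at most 0.27 in size. Tpp2, a serine exopeptidase acting on peptides released by the proteasome, was below the median gene at both times, with -0.74, -0.16 and -0.15 at 72 h and -0.89, -0.40 and -0.57 at 192 h, and differed by -0.27 ± 0.20. Its probe had a dye effect of -0.49, and before its subtraction all its Cy5 arrays lay between -1.41 and -0.49, while its Cy3 arrays lay between -0.077 and 1.10. Tmeff2, a transmembrane protein with follistatin-like domains, had 0.085, -0.062 and 0.0069 at 72 h and 0.18, 0.13 and 0.22 at 192 h, without overlap but with a difference of only 0.17 ± 0.11. Rasd1, a glucocorticoid-inducible Ras-like G protein, had ratios above the median gene in all 6 replicates, of 0.11, 0.16 and 0.16 at 72 h and 0.53, 0.18 and 0.17 at 192 h, and differed by 0.15 ± 0.13. Its probe had a dye effect of -0.31, and replicate 1 of 72 h and replicate 4 of 192 h, each measured in Cy5 alone, were at -0.17 and -0.14 before its subtraction.

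Of the 6 genes that differed by more than 1 in size, Jph3, Vav2 and Dbf4 are described above, and the remaining 3 were picked here for their size after their values were seen. Max, the partner of Myc in DNA binding, had the highest difference, 1.07, and Rpp30, a ribonuclease P subunit, one of the lowest, -1.20. The ratios of Max were -2.44, -0.29 and -0.30 at 72 h and 0.30, -0.077 and -0.028 at 192 h, and those of Rpp30 were 0.05, 1.05 and 0.021 at 72 h and -2.42, -0.12 and 0.048 at 192 h. Each holds a value below -2 in replicate 1 of a single time, which was measured on 1 array; the replicates of Max do not overlap between the times and those of Rpp30 do. Ect2, an exchange factor of cytokinesis, had 0.52, 1.53 and -0.43 at 72 h and -1.22, -0.79 and 0.12 at 192 h, a difference of -1.17, with replicates 3 and 4 of 72 h on opposite sides of the median gene.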

How the data were processed

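Hypothalamus RNA of the tumour and the PBS arm was hybridized on in-house printed 2-colour oligonucleotide arrays, each with 3 scanner files. Per the file headers, the deposited spot intensities had local background subtracted and the background intensities were kept as separate columns. The deposited saturation factor is a fraction, 1 where none of the spot is saturated. Value tables deposited by the authors hold a log ratio per spot, treated as a score, with column medians of -0.0065 to 0.0039. Their log base is not given in the sources used here, nor are scanner and image software.

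Log2 ratios of Cy5 over Cy3 were computed from these deposited intensities in R 4.3.3 with limma 3.58.1. Spots not measured, saturated or not above 0 were left out. Each scan was normalized by loess within print blocks (span 0.3, 4 iterations, blocks with under 20 measured spots left out), and the scans were averaged. The planned setting, loess over the whole array, was replaced after the print block was seen to hold 6.54% to 59.4% of the variance of the ratios, against 0.421% to 2.18% after block loess. The correlation with the authors' tables went from 0.478 to 0.845 before to 0.714 to 0.899 after. The dye effect of each probe, from 7 replicates labelled both ways, was subtracted, the ratios of arrays with the tumour RNA in Cy3 were reversed in sign, and arrays were averaged per replicate. The number of arrays limits the precision.

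Genes were named through the platform annotation, updated by Entrez ID: of 9008 accessions 8909 matched a current gene record, and 11 with several symbols were not named. A gene was represented by its brightest accession. In 18 genes 2 or more accessions were measured in all 6 replicates. The differences from 2 accessions of a gene correlated at 0.15 there and had the same sign in 8 of the 18. Replicates were centred on the median of the tested genes, and limma with empirical Bayes moderation (prior degrees of freedom 4.56) compared the times, two-sided, with Benjamini-Hochberg adjustment. Genes were named by a rule: the 10 of smallest p in each direction without overlap of replicates, up to 3 of smallest p from each list with 5 or more tested genes, leaving out those with p over 0.1, and 10 genes that earlier results of these data had named. Subunits set beside another of their complex, Foxb1 and the 3 genes of largest size were added after their values were seen. The comparison and the lists were chosen with earlier results of these data known. The fit was tested on simulated data.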

Additional observations from a re-analysis of the deposited data

Results flagged for a closer look

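In 53 of the 1846 tested genes (2.87%) all 3 ratios of one time lay on one side of the median gene and all 3 of the other time on the opposite side, 25 with the later time above and 28 with it below. Of the 38 genes for which alternatives were computed, 13 are among them. The differences (192 h minus 72 h, log2) were 0.69 for Dgat1, 0.47 for Mob4, 0.33 for Uqcrb, 0.30 for Mrpl48, and 0.29 each for Slc9a3r1 and Gnas, with 0.27 for Ube2a. On the lower side they were -1.04 for Vav2, -0.67 for Phf1, -0.44 for Tmem213, -0.40 for Mrpl15, -0.37 for Ncoa6 and -0.36 for Dlx4. Most of these genes had been chosen because their replicates do not overlap. None passed the test (adjusted p = 0.89 by limma for each), so a difference between the times beyond the replicate spread was not shown for any of them. Where a replicate was measured in 1 orientation, its sign rests on the subtraction of the dye effect. For Vav2, replicates 3 and 4 of 192 h, in Cy3 alone, were at 0.30 and 0.40 before it. Replicate 4 of 72 h, in Cy5 alone, was at -0.61, so these signs were the reverse of those after the subtraction.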

How the results depend on the processing

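The comparison was recomputed under 28 alternatives, 25 of them planned as such. The other 3 were loess over the whole array and the Cy5 or the Cy3 arrays alone. Loess over the whole array had first been planned as the main setting, and the fits by orientation were chosen after seeing the data. By limma, 0 genes had an adjusted p under 0.05 in each of the 28. The 75 genes with an unadjusted p under 0.05 became 35 with median centring of each scan, 47 with no dye correction, 49, 35 and 33 from scan 1, 2 or 3 alone, and 49 on the shared print alone. Where fewer genes were tested there were 26 of 617 with the same dye orientations at both times, 36 of the 923 brighter genes, and 24 of 848 on the Cy5 arrays alone. Leaving out 1 replicate gave 53 to 108. The smallest adjusted p of a named gene was 0.0705, that of Sh3bgr without replicate 1 of 72 h.

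Of 872 values of the named genes under an alternative, 13 turned in direction, and the cause was not tested. With median centring of each scan the differences were 0.017 for Mrps18b, -0.023 for Tmeff2, -0.034 for Rasd1, -0.046 for Ncoa1 and -0.039 for Oxt. Tpp2 was at 0.055 with no dye correction. Oxt was at -0.059 with the print as a term and at -0.033 to 0.15 with 1 replicate left out, the lowest without replicate 1 of 192 h. On the shared print Dbf4 was at 0.11, Oxt at -0.11 and Hcrt at -0.023. Rasd1 was at -0.088 on the Cy5 arrays and Oxt at -0.10 on the Cy3 arrays. The 20 genes chosen for separated replicates were bound to keep their direction under many of these settings.

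Of the list medians, that of DNA replication and chromatin genes ran from 0.01 to 0.23 over the 28 alternatives, that of the proteasome from 0.0003 to 0.13, that of the respiratory chain from -0.005 to 0.18, that of fatty acid and triglyceride synthesis from -0.0041 to 0.13 and that of second messenger genes from -0.076 to 0.0029. Of these alternatives 10 moved the proteasome median, 9 that of fatty acid and triglyceride synthesis, and 7 that of the chaperones, by more than the spread between replicates.

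Whether replicate numbers pair the samples could not be decided. The deviations of same-numbered replicates correlated at 0.10, 0.06 and -0.086 across genes. Even arrays of opposite orientation within a replicate correlated only at -0.24 to 0.17, so a pairing could be missed. A fit with the replicate block had 76 genes with an unadjusted p under 0.05 and 0 past the test.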
